A study of Mus with 2 samples.

Results

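T cells of mouse bone marrow that carry transcripts of the chemokine gene Ccl5 are described here, in 1 library from running mice and 1 library from ground mice. A barcode was a member when it held at least 2 unique molecular identifiers (UMIs, single captured transcripts) of Cd3d, Cd3e and Cd3g together, at least 2 UMIs of Ccl5 and none of the B cell gene Cd79a. UMIs of the neutrophil genes S100a8 and S100a9 also had to stay under 5% of the total. This rule found 224 cells in the running library and 146 in the ground library, or 370 of 18089 barcodes with at least 500 UMIs, at least 250 genes and at most 10% mitochondrial UMIs. Members were thus chosen by their measured UMIs of Ccl5, the Cd3 genes, Cd79a, S100a8 and S100a9, so the levels of these genes are a description of the choice.

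Marrow was taken from mouse hindlimbs and sequenced as single cells with a droplet kit that reads the 3′ ends of transcripts. The labels name the groups running and ground and give the tissue, but give no strain, age, sex, running protocol or number of mice for either library. A group is a single library, so running and ground could not be tested against each other, and each interval below covers counting error only. The effect of running, differences between the mice and differences between the library preparations cannot be told apart.

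Memory and effector T cells are T cells that have met antigen or strong cytokine signals and keep a programme for fast responses. Many of them settle in bone marrow, where stromal cells supply the interleukins that maintain them. CCL5 is a chemokine that memory CD8 T cells keep as stored RNA and release quickly, and that natural killer (NK) cells also express. CD8 T cells among them make granzymes and perforin, and T cells with innate features, such as invariant NKT cells and γδ T cells, share NK receptors with NK cells.

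The deposited running matrix held 9473 barcodes and 79990530 UMIs, and the ground matrix 9162 barcodes and 85014860 UMIs. Of these, 9180 running and 8909 ground barcodes passed, with medians of 5196.5 UMIs in running and 5993 UMIs in ground. The members ran the other way in depth, with medians of 6180.5 UMIs (1379 to 36099) in running and 4925 UMIs (1851 to 47714) in ground. Their median number of genes was 2038 in running and 1887 in ground, and their median mitochondrial share 3.54% in running and 3.62% in ground. The files shared 24 barcode sequences, no barcode was a member in both libraries, and 1 ground member's barcode also stood in the running file. Scrublet, a caller of doublets (2 cells read as 1), marked 1 running member and 3 ground members, which were kept in the values below.

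Ccl5 chose the members, so its values are given as a description. Members held a median of 47 Ccl5 UMIs in running (maximum 231) and 31.5 in ground (maximum 156). Among T cells by the other parts of the rule, 55 running and 56 ground cells had no Ccl5 UMI. Only 4 running and 6 ground T cells lay just outside with 1 Ccl5 UMI, and 3 running and 2 ground cells just inside with exactly 2. The Cd3 genes had a median of 12 UMIs per member in running and 9 in ground, and 5 running and 6 ground members had exactly 2. A further 10 running barcodes and no ground barcode failed on a single Cd3 UMI alone. Ccl5 lies on chromosome 11 from 83525778 to 83530518, in RefSeq annotation of GRCm38.p6, the assembly behind mm10.

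**Figure D1:**
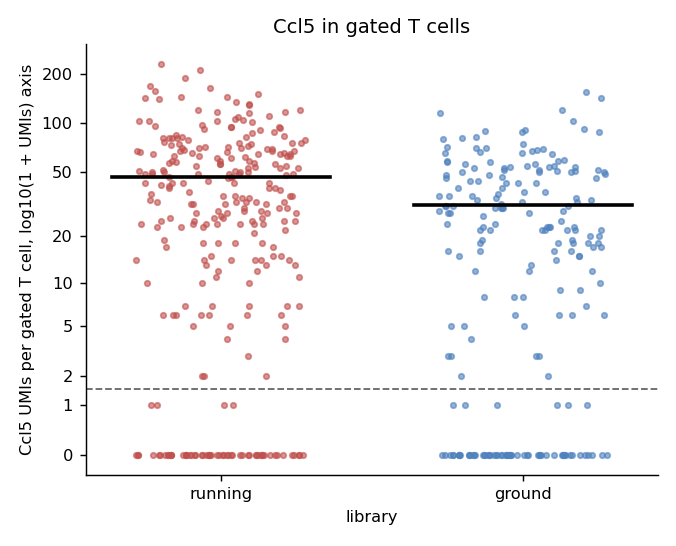
Ccl5 UMIs in each gated T cell of the running library (left) and the ground library (right), on a log10(1 + UMIs) axis. Each point is 1 cell, the dashed line lies just below the minimum of 2 UMIs in the rule, and the black bars mark the members' medians of 47 in running and 31.5 in ground.

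The label was checked against Il2rb and Nkg7, which the rule did not use. Nkg7, a granule membrane protein of cytotoxic lymphocytes, had a UMI in 98.2% of running and 93.8% of ground members. In B cells of the same libraries the share with an Nkg7 UMI was 3.13% in running and 3.60% in ground, at median depths of 3585 UMIs in running and 3254 UMIs in ground. Il2rb, the receptor chain shared by interleukin-2 and interleukin-15, had a UMI in 84.4% of running and 82.2% of ground members, against 0.988% of running and 0.515% of ground B cells. T cells with fewer than 2 Ccl5 UMIs lay between, with an Nkg7 UMI in 40.7% of running and 46.8% of ground cells. Their share with an Il2rb UMI was 35.6% in running and 38.7% in ground, so neither gene is particular to the members. A transcript of the constant regions Trac, Trbc1 or Trbc2 of the αβ T cell receptor was present in 224 of 224 running and 144 of 146 ground members. Most members thus carried Il2rb, Nkg7 and αβ T cell receptor transcripts.

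Some members carried genes that the label does not name. Ncr1, which encodes the NK cell receptor NKp46, had a UMI in 21 running and 18 ground members. These cells held a median of 9 Cd3 UMIs in running and 7 in ground, against 12 in the other running members and 9.5 in the other ground members. No Ncr1-positive member had a Cd8a, Cd8b1 or Cd4 UMI, 9 of 21 in running and 4 of 18 in ground had a Trac UMI, and 21 of 21 in running and 17 of 18 in ground had a Trac, Trbc1 or Trbc2 UMI. Whether they are T cells with an NK receptor or NK cells with Cd3 transcripts cannot be told apart by the rule. Klrb1c, the gene of NK1.1, was also present in 19 of these 21 running and 15 of these 18 ground cells. The regulatory T cell factor Foxp3 had a UMI in 3 running and 2 ground members.

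Markers of other cell types were read for each list as a whole. All 5 granulocyte-monocyte progenitor markers were detected in both libraries, with 104 UMIs in running members and 2546 in ground members, and 1 ground cell of 47714 UMIs held 2434 of the ground UMIs. All 8 monocyte markers were detected in both, with 1109 UMIs in running and 1534 in ground members. All 9 neutrophil markers were detected, at 1019 UMIs per 1000000 (CPM) in running and 1416 CPM in ground members. Of 8 B cell markers 7 were detected in each library, at 372 CPM in running and 436 CPM in ground. Members with over 15000 UMIs numbered 3 in running and 4 in ground, and values without them stand beside the results they moved most.

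Members formed a larger share of the running marrow than of the ground marrow. They made up 2.44% of passing barcodes in running (95% exact binomial interval 2.13% to 2.78%) and 1.64% in ground (1.39% to 1.92%), a ratio of 1.49 (1.21 to 1.83). T cells with fewer than 2 Ccl5 UMIs made up 0.643% in running and 0.696% in ground, a ratio of 0.924 (0.647 to 1.32). Members were 224 of 283 T cells in running (79.2%, 73.9% to 83.7%) and 146 of 208 in ground (70.2%, 63.5% to 76.3%). NK cells, taken as barcodes with at least 2 UMIs of Ncr1 and Klrb1c and none of the Cd3 genes, made up 0.632% in running and 0.460% in ground, a ratio of 1.37 (0.921 to 2.05). All T cells together had a ratio of 1.32 (1.11 to 1.58). The ratios of members and NK cells were close, and the differences between these ratios were not tested. These are shares of sequenced barcodes, so fewer other cells and more members cannot be told apart. Thinned to 2000 UMIs per barcode before the rule was applied, the ratio of the members' shares was 1.49 (1.19 to 1.87).

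Coreceptor transcripts divided the members into CD8-type cells, a small CD4-type group and a large group with neither. Cd8a or Cd8b1 without Cd4 was found in 98 running members (43.8%, 37.2% to 50.5%) and 65 ground members (44.5%, 36.3% to 53.0%). Cd4 alone was found in 18 running members (8.04%) and 7 ground members (4.79%), and 1 running member had both. Neither coreceptor was detected in 107 running members (47.8%) and 74 ground members (50.7%). With every member thinned to 2000 UMIs, which left out 2 running and 3 ground cells, the CD8 share was 32.9% in running and 33.6% in ground. Shares of the 3 classes overlapped in their intervals between the libraries, but the CD8 share stood at 40.4% in running and 53.2% in ground among the 94 running and 62 ground members with at most 3 UMIs of the myeloid and B cell genes Lyz2, Ngp, Camp, C1qa, Cd79b and Ms4a1 together. These are called the members with at most 3 myeloid and B cell UMIs below. Such UMIs were not absent from them, with 53 Lyz2 UMIs in running and 25 in ground. A limit in UMIs passes shallow cells more easily, so this choice also depends on depth. A missing UMI does not show that a coreceptor was absent, since shallow cells miss transcripts. In B cells, 0.576% of running and 0.343% of ground cells had a Cd8 UMI alone.

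NK-type receptors were common among the members. Klrb1c had a UMI in 93 running members (41.5%, thinned 27.0%) and 51 ground members (34.9%, thinned 23.1%), against 0.329% of running and 0.515% of ground B cells. Xcl1, a chemokine that attracts cross-presenting dendritic cells, was found in 48.7% of running and 48.6% of ground members. Transcripts of a γ chain constant region (Tcrg-C genes) were found in 24.6% of running and 35.6% of ground members, but in 14.9% of running and 16.8% of ground members after thinning. Trdc, the δ chain constant region, had a UMI in 8.48% of running and 11.6% of ground members. Zbtb16, the PLZF factor of invariant NKT cells, was found in 7 running and 4 ground members. Klrg1, a receptor of terminal effector cells, was found in 5 of 224 running and 12 of 146 ground members.

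**Figure D2:**
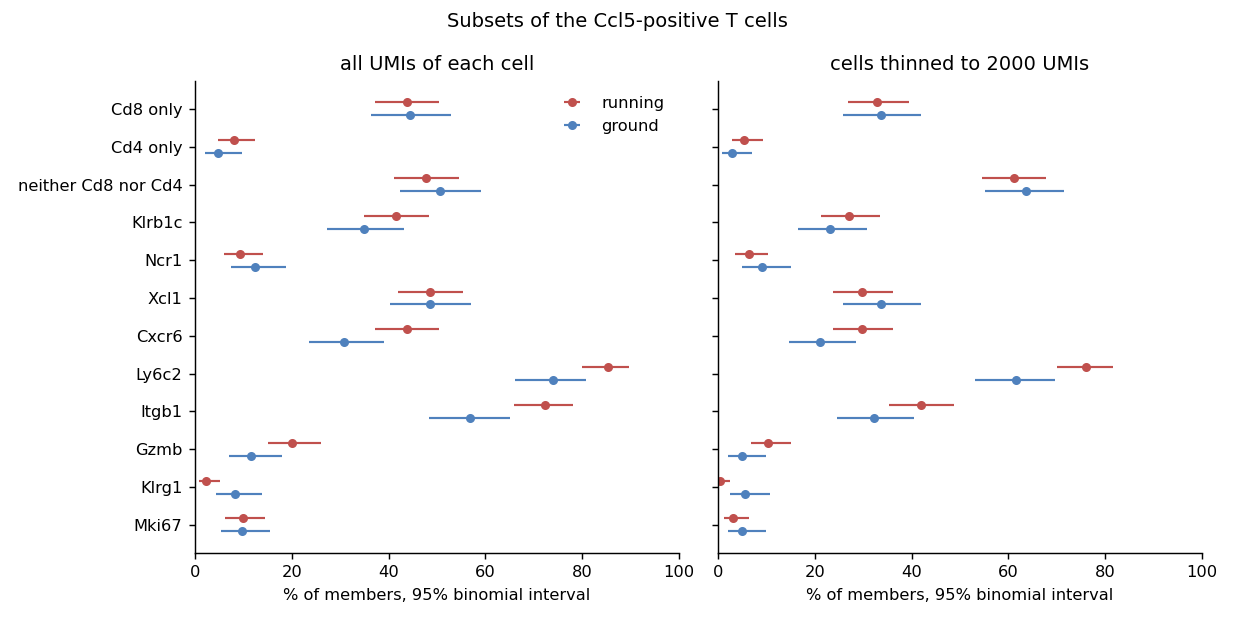
Percent of members in each coreceptor class or with at least 1 UMI of a gene, in running (upper point of each pair) and ground (lower point), with 95% exact binomial intervals; the left panel uses all UMIs and the right panel cells thinned to 2000 UMIs. Coreceptor classes lie close together in the libraries, while Ly6c2 lies higher in running in both panels, at 76.1% in running and 61.5% in ground after thinning.

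Several other transcripts differed between the coreceptor classes in the same direction in both libraries. Cells with neither coreceptor held 67.3% Klrb1c-positive cells in running and 54.1% in ground, whereas the CD8-type cells held 21.4% in running and 15.4% in ground. Ncr1 was found in 0 of 98 running and 0 of 65 ground CD8-type cells, which allows a share of cells with an Ncr1 UMI, not of cells expressing it, of up to 3.06% in running and 4.62% in ground. Trdc stood at 131 CPM in running and 121 CPM in ground in cells with neither coreceptor, against 5.98 CPM in running and 10.3 CPM in ground CD8-type cells. Fcer1g and Tyrobp, signalling adaptors of NK receptors, were also higher in cells with neither coreceptor. Themis, a signalling protein of αβ T cell development, stood at 181 CPM in running and 134 CPM in ground CD8-type cells, against 19.2 CPM in running and 31.3 CPM in ground cells with neither coreceptor. Gzma did not share a direction, with a UMI in 8.41% of running and 16.2% of ground cells with neither coreceptor, against 12.2% of running and 12.3% of ground CD8-type cells. The inhibitory receptor genes Cd5 and Cd6 were higher in the CD8-type cells of both libraries. Cells of 1 library are not replicates, so no test was made between classes, and the genes named here were chosen after their values were seen.

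**Figure D3:**
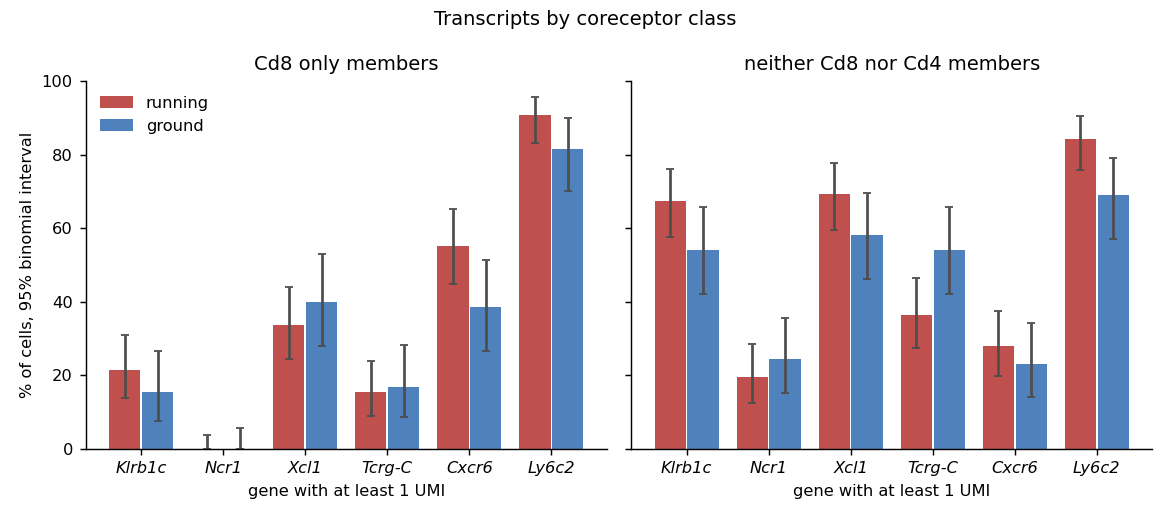
Percent of CD8-type members (left panel) and of members with neither Cd8 nor Cd4 (right panel) with at least 1 UMI of each gene, in running (left bar) and ground (right bar), with 95% exact binomial intervals. Klrb1c, Ncr1 and Xcl1 are higher in the right panel in both libraries, and Cxcr6 is higher in the left panel.

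A split by Klrb1c gave a similar picture. Xcl1 had a UMI in 77.4% of running and 74.5% of ground Klrb1c-positive members, against 28.2% of running and 34.7% of ground members without Klrb1c. Cxcr6, the receptor for CXCL16 and a gene of tissue-lodged T cells, was found in 21.5% of running and 21.6% of ground Klrb1c-positive members. Among members without Klrb1c its share was 59.5% in running and 35.8% in ground. Klrk1, the gene of the activating receptor NKG2D, stood at 643 CPM in running and 643 CPM in ground Klrb1c-positive cells, against 224 CPM in running and 197 CPM in ground cells without Klrb1c. Ly6a was low in Klrb1c-positive cells of both libraries, at 58.4 CPM in running and 24.9 CPM in ground, and stood at 508 CPM in running and 100.3 CPM in ground cells without Klrb1c. The CD4-type cells carried Cxcr6 in 13 of 18 running and 3 of 7 ground cells.

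Set beside T cells with fewer than 2 Ccl5 UMIs, members differed in ways that the rule in part fixes, so these values are a description. Granzyme gene Gzma stood at 198 CPM in running and 258 CPM in ground members and had no UMI in the Ccl5-low T cells of either library. Against a floor of 3 UMIs in those cells, Gzma was 30.2-fold higher in running members and 28.2-fold higher in ground members. These values leave out the members' own counting error. Exact intervals that cover it began at 4.61 in running and 4.51 in ground on the log2 scale. Only 21 running and 20 ground members had a Gzma UMI, and 3 cells of each library held 53.3% of the UMIs in running and 30.8% in ground. Klrc1, which encodes the receptor NKG2A, was higher in members by 4.65 in running and 5.46 in ground on the log2 scale. Xcl1 was higher by 4.33 in running and 4.55 in ground. Ccl5-low T cells held more of the replication histone gene Hist1h2ap, with differences of -3.83 in running and -3.71 in ground, and of the proliferation gene Mki67, with -3.27 in running and -2.22 in ground. These are values of summed UMIs, and 8 of 59 running and 2 of 62 ground Ccl5-low T cells had over 15000 UMIs. The part of such cells in these differences was not tested. The share of cells with an Mki67 UMI was 9.82% in running and 9.59% in ground members, against 20.3% of running and 9.68% of ground Ccl5-low T cells, so in ground the level differed without a difference in that share. Against NK cells, members were lower in Gzma (-4.72 in running and -4.05 in ground) and in the NK receptor gene Klra4 (-5.94 in running and -4.84 in ground). Themis, Cd5 and Cd6 had no UMI in the NK cells of either library.

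For the comparison of running with ground, UMIs were summed over the members of each library and scaled to CPM, and the log2 ratio was read with an exact conditional binomial 95% interval. Of 5393 genes with at least 50 UMIs in both libraries together, 55 were at least 2-fold higher in running (1.02%) and 69 at least 2-fold lower (1.28%). The median log2 ratio of all measured genes was -0.02, and the middle of the distribution ran from -0.23 at the lower quartile to 0.18 at the upper quartile.

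Ly6a, which encodes the surface protein Sca-1 that interferons induce on T cells, led the ranking. It held 452 UMIs in 98 of 224 running members, or 312 CPM, and 63 UMIs in 30 of 146 ground members, or 72.4 CPM. Running members were thus higher by 2.11 on the log2 scale (1.72 to 2.51), and no cell held more than 7.38% of its UMIs. The ratio stood above 0 in each coreceptor class, at 2.10 in CD8-type cells (1.59 to 2.66), 2.19 in CD4-type cells (1.16 to 3.44) and 1.35 in cells with neither (0.62 to 2.14). It was 1.53 when cells were weighted equally, 1.16 with barcodes thinned before the rule, and 1.0 without members carrying over 3 UMIs of myeloid or B cell genes. Ccl5-low T cells had 299.7 CPM in running and 194.5 CPM in ground, a ratio of 0.62 (0.19 to 1.08), and B cells had a ratio of 0.19. Ly6a lies on chromosome 15 from 74994877 to 74998031.

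Other Ly6 genes stood nearer to 0. Ly6c2, a marker of memory CD8 T cells, held 2351 UMIs in running members (1621 CPM) and 1033 UMIs in ground members (1188 CPM), a ratio of 0.45 (0.34 to 0.56). It was found in 85.3% of running and 74.0% of ground members, and, with cells thinned to 2000 UMIs, in 76.1% of running and 61.5% of ground members and 13.6% of running and 12.3% of ground B cells. Ly6e had a ratio of 0.15 (0.00 to 0.29). All 3 measured genes of this list stood above 0, against 47.7% of all measured genes. In this list 1 was at least 2-fold higher, against 1.02% of all measured genes. Ly6c2 and Ly6c1 are close copies, so the counting may have split reads between them.

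Granzyme and killing genes did not stand higher as a group. Their median log2 ratio was 0.01 over 13 measured genes, of which 1 was at least 2-fold higher, against 1.02% of all measured genes. That gene, Gzmb, encodes granzyme B, a protease that cytotoxic cells deliver into their targets. It held 130 UMIs in 45 running members (89.6 CPM) and 25 UMIs in 17 ground members (28.7 CPM), a ratio of 1.64 (1.02 to 2.32). In CD8-type cells Gzmb stood at 159 CPM in running and 38.6 CPM in ground, a ratio of 2.04 (1.25 to 2.92). In cells with neither coreceptor it stood at 28.1 CPM in running and 22.3 CPM in ground, with an interval of -0.85 to 1.60 around 0.33. The difference between these classes was not tested. Gzmb was 0.91 with cells weighted equally and 0.35 without members carrying over 3 myeloid or B cell UMIs. Perforin gene Prf1 ran the other way, with 97 UMIs in running and 85 in ground members and a ratio of -0.55 (-0.98 to -0.11). Gzma held 287 UMIs in running and 224 in ground, a ratio of -0.38 (-0.64 to -0.12) that turned to 0.45 in CD8-type cells, and Nkg7 had a ratio of 0.12. Srgn, the proteoglycan that packs granules, had a ratio of -0.68 (-0.83 to -0.52) over all members. Without members over 15000 UMIs it stood at 490.4 CPM in running and 478 CPM in ground, so its difference rested on the high-UMI cells.

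Cytokine and chemokine genes had a median log2 ratio of 0.98 over 8 measured genes, and 4 of these were at least 2-fold higher, against 1.02% of all measured genes. Single cells held many of the UMIs of Ccl3, Ccl4 and Ifng. With the largest cell of each gene left out, the median was 0.21 over 6 measured genes, since others fell under 50 UMIs. The ratios of Ccl3, Ccl4, Ifng and Tnfsf14 were then 1.19, 1.19, 1.04 and 1.89. With members under 2000 UMIs left out, the median was 0.29 over 7 measured genes. Ccl3 held 131 UMIs in running and 13 in ground members, and 93 of the running UMIs came from 1 cell. Ccl4 held 321 UMIs in running and 54 in ground members, and 1 running cell held 146. Without the top cell of each library Ccl4 stood at 121 CPM in running and 52.9 CPM in ground. Ccl4 was found in 17.9% of running and 21.9% of ground members, so the cells with a UMI were not a larger share in running. Interferon-γ gene Ifng held 155 UMIs in running and 29 in ground members, with 66 in 1 running cell. Its ratio was 1.68 (1.10 to 2.31) with that cell and 1.04 without the top cell of each library, and 38 of 224 running and 22 of 146 ground members had a UMI. Tnfsf14, which encodes the costimulatory ligand LIGHT, held 43 UMIs in running and 7 in ground members. Il21 had 31 UMIs, all in 1 running cell. Xcl1, with 319 UMIs in running and 186 in ground members, had a ratio of 0.04 (-0.22 to 0.31) with no settled sign under the alternatives, and the lymphotoxin gene Ltb a ratio of 0.28 (0.14 to 0.42).

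Interferon-response genes stood higher over all running members. Of 30 measured type I interferon genes 23 were above 0, against 47.7% of all measured genes. In this list 6 were at least 2-fold higher, against 1.02% of all measured genes. The list median was 0.37. In the members with at most 3 myeloid and B cell UMIs the list median was -0.08 over 18 measured genes. There Ifit1 stood at 1.88, Isg15 at 1.29, Ifit3 at 0.99, Usp18 at 0.94 and Ifi27l2a at 0.65, while Bst2 stood at -0.08. Ifit1, Isg15, Ifit3 and Usp18 had few UMIs even over all members. Ifi27l2a, an interferon-induced gene, held 756 UMIs in 142 running members (521 CPM) and 183 UMIs in 57 ground members (210.4 CPM), a ratio of 1.31 (1.07 to 1.55). It was also above 0 in Ccl5-low T cells at 0.66, in NK cells at 2.17 and in B cells at 0.56. Bst2, the antiviral protein tetherin, held 177 UMIs in running and 49 in ground members, a ratio of 1.12 (0.65 to 1.60). Its ratio was -0.08 without members carrying over 3 myeloid or B cell UMIs. Isg15, a ubiquitin-like modifier, held 56 UMIs in running and 14 in ground, a ratio of 1.26 (0.40 to 2.22). Ifit1, Usp18 and Ifit3, an RNA sensor, a brake on interferon signalling and an Ifit partner, had 46, 49 and 42 UMIs in running against 7, 9 and 10 in ground. Shisa5 had -0.03 and Irf7, an interferon-regulated transcription factor, 0.05.

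The subsets did not show the interferon genes equally. In CD8-type cells Ifi27l2a had a ratio of 1.84 (1.47 to 2.23), and in cells with neither coreceptor 0.64 (0.27 to 1.03). In Klrb1c-positive cells it stood at 210.0 CPM in running and 177 CPM in ground, with an interval of -0.21 to 0.72. Isg15 held 49 UMIs in running and 5 in ground among members without Klrb1c, and 7 in running and 9 in ground among Klrb1c-positive members. These class differences were not tested. Plasmacytoid dendritic cell markers, from a cell type that makes type I interferon, were at 173 CPM in running and 60.9 CPM in ground members, with 36.3% of the running UMIs in 1 cell; their part in these ratios was not tested.

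Genes that interferon-γ induces had a list median of 0.39 over 14 measured, with 11 above 0 and 2 at least 2-fold higher, against 47.7% above 0 and 1.02% at least 2-fold higher among all measured genes. Igtp, an immunity-related GTPase, held 102 UMIs in running and 30 in ground members, a ratio of 1.03 (0.43 to 1.67). Guanylate-binding protein gene Gbp6 held 54 UMIs in running and 15 in ground, a ratio of 1.11 (0.26 to 2.04); it has close copies that may share its reads. Irf1, an interferon-γ-induced transcription factor, had -0.05 (-0.42 to 0.32). In the members with at most 3 myeloid and B cell UMIs the list median was -0.28 over 5 measured genes. Class I antigen presentation genes had smaller ratios. Of 20 measured genes 16 were above 0, against 47.7% of all measured genes, and none was past 2-fold. The median was 0.20, or 0.058 in the members with at most 3 myeloid and B cell UMIs. The immunoproteasome subunit Psmb9 held 282 UMIs in running and 100 in ground members, a ratio of 0.76 (0.42 to 1.10), and Psmb8 had 0.53 (0.35 to 0.70). H2-K1, a class I heavy chain, had 0.28 (0.19 to 0.36), and B2m, its light chain, 0.11 (0.01 to 0.20). H2-Q6 and H2-Q7 are near-identical copies whose reads could be split between them, so their ratios are uncertain.

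**Figure D4:**
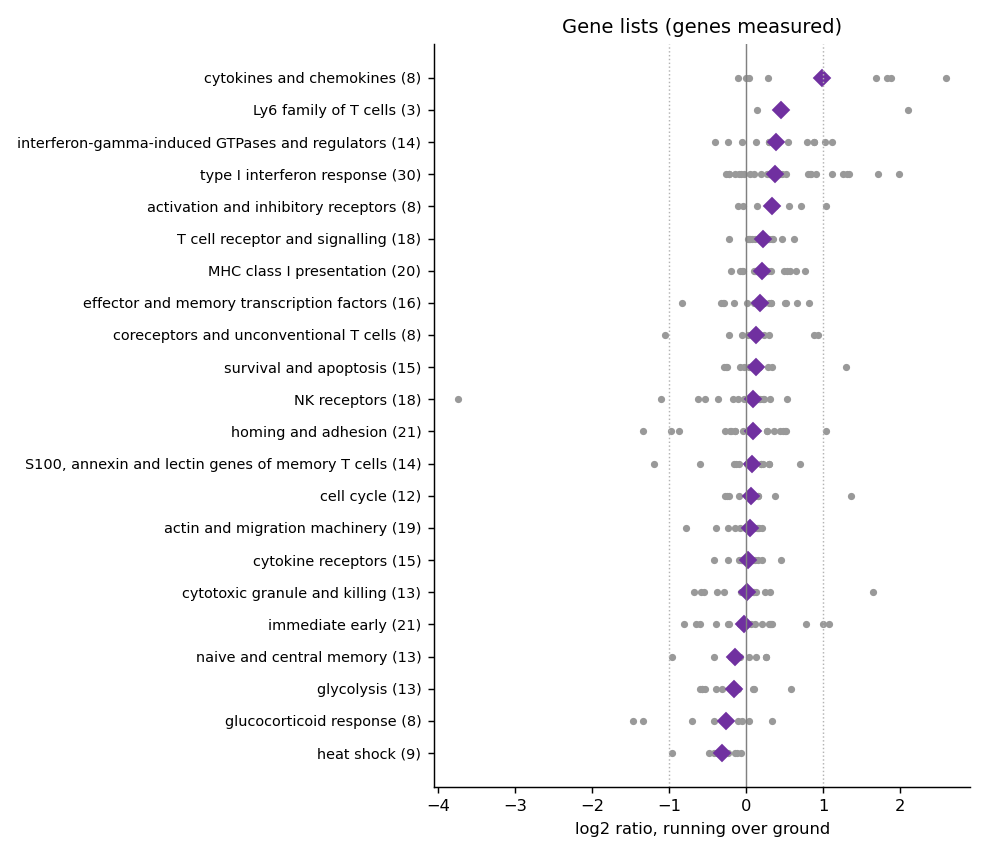
Log2 ratio running over ground of each measured gene (grey points) and the median (purple diamond) of gene lists with at least 3 measured genes; the number measured stands in brackets and dotted lines mark 2-fold. Medians run from 0.98 for cytokines and chemokines to -0.31 for heat shock genes.

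Among homing and adhesion genes the median was 0.09 over 21 measured, with 1 past 2-fold higher and 1 past 2-fold lower. Among all measured genes, 1.02% were past 2-fold higher and 1.28% past 2-fold lower. Cxcr6 held 353 UMIs in 98 running members (243 CPM) and 103 UMIs in 45 ground members (118 CPM), a ratio of 1.04 (0.72 to 1.37). In CD8-type cells it was 1.47 (1.0 to 1.96), and in cells with neither coreceptor 0.34 (-0.18 to 0.88). Cxcr4, the receptor for the marrow retention chemokine CXCL12, ran the other way. It held 41 UMIs in 34 running members (28.3 CPM) and 62 UMIs in 47 ground members (71.3 CPM), a ratio of -1.33 (-1.94 to -0.74). The ratio was -1.47 without members over 15000 UMIs, and its highest value under any alternative tried was -0.89. Cxcr4 was also lower in running NK cells at -2.06 (-3.55 to -0.76) and B cells at -0.82, but stood at 0.03 in Ccl5-low T cells. Cxcr6 lies on chromosome 9 from 123806477 to 123811754, and Cxcr4 on chromosome 1 from 128588199 to 128592299. Cxcr3, the receptor for interferon-induced chemokines, had 0.44 (0.13 to 0.76). Integrin β1 gene Itgb1 held 445 UMIs in running and 188 in ground members, a ratio of 0.51 (0.26 to 0.76), and the integrin αL gene Itgal had 0.36 (0.11 to 0.62). Itga1, the α1 chain of collagen-binding integrin, had -0.87 (-1.34 to -0.39). Rcn2, the reticulocalbin-2 gene, held 28 UMIs in running and 8 in ground members, a ratio of 1.07 with an interval of -0.10 to 2.41, and lay under the 50 UMIs required for a count.

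Cxcr4 is also on the list of glucocorticoid-response genes, where 2 of 8 measured genes were at least 2-fold lower in running, against 1.28% of all genes. The other was Tsc22d3, the gene of GILZ, a standard target of the glucocorticoid receptor. It held 42 UMIs in 37 running members (29.0 CPM) and 70 UMIs in 45 ground members (80.5 CPM), a ratio of -1.47 (-2.06 to -0.90). In CD8-type cells it held 14 UMIs in running and 41 in ground, a ratio of -2.33 (-3.32 to -1.43). In cells with neither coreceptor it held 26 UMIs in each library, with an interval of -1.44 to 0.25. Ccl5-low T cells had a ratio of -0.70 (-1.34 to -0.07), NK cells -0.30 and B cells -1.02. Il7r, the interleukin-7 receptor chain, held 370 UMIs in running and 296 in ground members, a ratio of -0.42 (-0.64 to -0.19). The receptor gene Nr3c1 had -0.11 (-0.47 to 0.26), and Dusp1, another induced gene, 0.34 (-0.14 to 0.84). The list median was -0.26. In the members with at most 3 myeloid and B cell UMIs it was 0.10 over only 3 measured genes. There the summed UMIs of the list had a ratio of -0.32 (-0.57 to -0.07), with Cxcr4 at -2.08 and Tsc22d3 at -1.88. Tsc22d3 lies on chromosome X from 140539528 to 140600522.

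Heat shock genes had ratios below 0 in running members, with 0 of 9 measured above 0, against 47.7% of all measured genes, a median of -0.31 and none past 2-fold. Hsph1, a chaperone exchange factor, held 105 UMIs in running and 123 in ground members, a ratio of -0.97 (-1.36 to -0.58). Hsp90aa1, the inducible HSP90 chain, had -0.48 (-0.66 to -0.30), and Hsp90ab1, its constitutive partner, had 1906 UMIs in running and 1418 in ground, with -0.31 (-0.41 to -0.21). NK cells had -0.41 for Hsp90ab1, and Ccl5-low T cells 0.09. Immediate early genes, which dissociation of tissue can also induce, had a median of -0.03 over 21 measured, and of 0.10 without members over 15000 UMIs. Glycolysis genes had a median of -0.16 over 13 measured, with 3 above 0, against 47.7% of all measured genes. The glycolysis median was -0.03 without members over 15000 UMIs.

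Genes of the T cell receptor and its signalling stood slightly higher, with 17 of 18 above 0, against 47.7% of all measured genes, a median of 0.22 and none past 2-fold. The median was 0.075 with barcodes thinned before the rule and 0.017 in the members with at most 3 myeloid and B cell UMIs. Trbc2 held 1908 UMIs in running and 747 in ground members, a ratio of 0.62 (0.49 to 0.74), while its close copy Trbc1 had 0.06 (-0.09 to 0.21). These copies share sequence, so reads may be split between them. Cd8b1, the CD8 β chain, held 392 UMIs in 71 running members (270.3 CPM) and 123 UMIs in 40 ground members (141 CPM), a ratio of 0.93 (0.64 to 1.24). Cd8a, the α chain, had 0.30 (0.03 to 0.58). Cd8b1 was 0.22 with barcodes thinned before the rule and 0.11 without members carrying over 3 myeloid or B cell UMIs. Tcrg-C2, a γ chain constant region, held 45 UMIs in running and 56 in ground, a ratio of -1.05 (-1.65 to -0.46), while Tcrg-C4 had -0.22 and Trdc -0.06.

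Costimulatory and inhibitory receptor genes had a median of 0.33 over 8 measured. Icos, a costimulatory receptor of activated T cells, held 79 UMIs in 56 running members (54.5 CPM) and 23 UMIs in 17 ground members (26.4 CPM), a ratio of 1.04 (0.36 to 1.78). It was 1.80 (0.54 to 3.34) in CD8-type cells and 0.17 without members carrying over 3 myeloid or B cell UMIs. Tnfrsf18, which encodes GITR, had 0.71 (0.28 to 1.17), and Cd226, an activating receptor, 0.56 (0.26 to 0.87). The activation marker genes Cd69 and Cd44 had 0.14 (-0.24 to 0.52) and -0.04 (-0.37 to 0.29). The exhaustion-linked receptor genes Pdcd1 and Lag3 were under 50 UMIs, with 11 and 17 UMIs in running and 2 and 4 in ground.

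Transcription factor genes of effector and memory cells had a median of 0.18 over 16 measured, and none was past 2-fold. Id2, which favours effector CD8 T cells, held 946 UMIs in running and 399 in ground members, a ratio of 0.51 (0.34 to 0.68). Zeb2, a factor of terminal effector cells that myeloid cells also express, had -0.84 (-1.23 to -0.45). Tbx21, the T-bet gene, had 0.10 (-0.37 to 0.58) and Eomes, its relative, -0.30 (-0.68 to 0.08). Genes of naive and central memory cells had a median of -0.15, with 4 of 13 above 0, against 47.7% of all measured genes. In this list Tcf7 and Lef1, factors of self-renewing T cells, had -0.09 (-0.35 to 0.16) and -0.19 (-0.57 to 0.20). Cytokine receptor genes had a median of 0.02 over 15 measured, with Il2rb at -0.02 (-0.17 to 0.12). Cell cycle genes had a median of 0.06 over 12 measured, which turned to -0.25 without members over 15000 UMIs, and Mki67 was found in 9.82% of running and 9.59% of ground members. The mitotic gene Ube2c held 47 UMIs in running and 11 in ground members, with a ratio of 1.36 in all members and -0.18 without those over 15000 UMIs. S100, annexin and lectin genes had a median of 0.08 over 14 measured, with S100a4 at 0.69 (0.46 to 0.92). Actin and migration genes had a median of 0.05, and survival genes 0.12, where Bcl2a1d, an anti-apoptotic BCL2 relative, had 1.30 (0.32 to 2.40) but has near-identical copies that may share its reads.

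NK receptor genes had a median of 0.09 over 18 measured, and 2 were at least 2-fold lower in running, against 1.28% of all measured genes. Klra8, which encodes the activating receptor Ly49H, held 8 UMIs in 3 running members and 64 UMIs in 7 ground members, a ratio of -3.74 (-5.01 to -2.67). All of these 10 cells were Ncr1-positive. NK cells ran the other way, with a Klra8 ratio of 0.75. Klra9 held 48 UMIs in running and 62 in ground members, a ratio of -1.11 (-1.68 to -0.54). Ly49 genes are a family of close copies, so the counting may have split or lost some of their reads. Klrk1 had 0.17 (-0.03 to 0.37) and Klrd1, the CD94 chain, 0.10 (-0.12 to 0.33).

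Several genes with low ratios were myeloid, and their ratios were nearer to 0 without members over 15000 UMIs. Lyz2, the lysozyme of monocytes and neutrophils, held 596 UMIs in 158 running members and 1058 in 80 ground members, a ratio of -1.57. In ground, 3 cells held 83.6% of these UMIs. Without members over 15000 UMIs, Lyz2 had 336 UMIs in running and 159 in ground, and a ratio of 0.25. Slpi, a protease inhibitor of neutrophils, had -1.70 in all members and -0.74 without the high-UMI members, and Gsr, glutathione reductase, -1.02 and 0.05. Lgals3, the galectin-3 gene, had -1.20 in all members and -0.15 without them. Ifitm2, Alox5ap, Ifitm6, Creg1 and Ccl6 were nearer to 0 without the high-UMI members as well. By contrast Tsc22d3 had -1.45 and Cxcr4 -1.47 without them. The remaining ranked genes higher in running were Rgs1, a brake on chemokine receptor signalling, at 1.24 (0.75 to 1.75), and Adam19, a sheddase, at 1.45 (0.70 to 2.27). Rgs1 also had ratios of 1.28 in Ccl5-low T cells, 1.19 in NK cells and 1.79 in B cells. Nmi, an interferon-induced adaptor, and Nop14, a ribosome assembly factor, had 0.97 (0.43 to 1.54) and 0.96 (0.29 to 1.69), and Morf4l2, a chromatin protein, held 51 UMIs in running and 61 in ground, with an interval of -1.56 to -0.44. With barcodes thinned before the rule, Rgs1 was 0.48, Adam19 0.04 and Nmi 0.015, while Nop14 was 1.81.

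**Figure D5:**
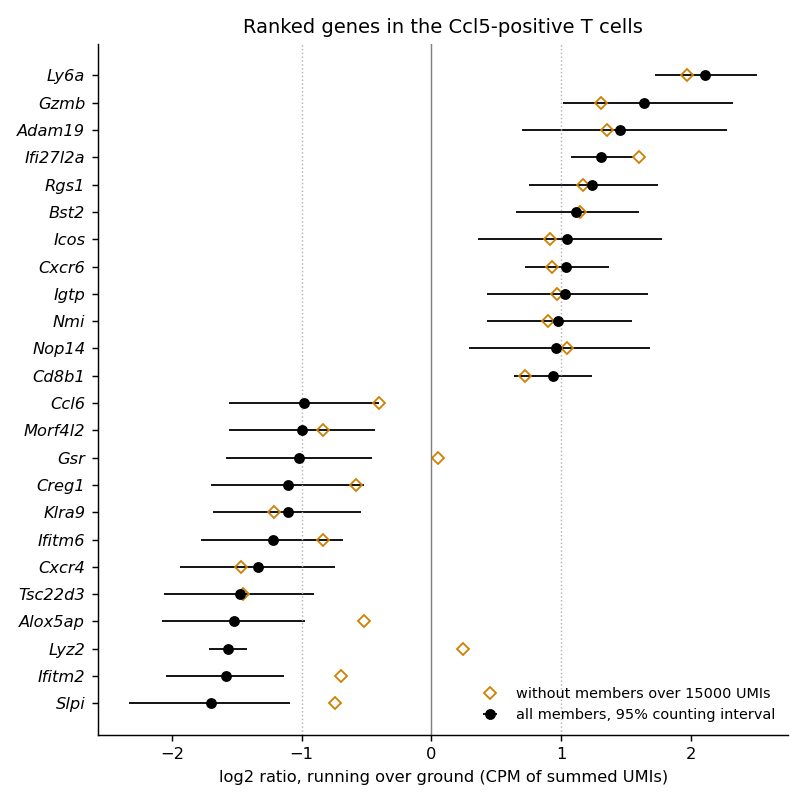
Log2 ratio running over ground of the 12 highest and 12 lowest genes with at least 100 UMIs and at most 20% of them in 1 cell; black points and bars show all members with 95% counting intervals, and open diamonds the members without those over 15000 UMIs. Ly6a stands highest at 2.11, and Lyz2 and Gsr move to 0.25 and 0.05 without the high-UMI members, while Tsc22d3 stays at -1.45.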

How the data were processed

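Bone marrow of running and ground mice was profiled with a droplet 3′ gene expression kit (Chromium, v3), per the labels' protocols, with 1 library per group. The authors deposited raw UMI counts per gene and barcode, and per the file headers Cell Ranger 5.0.0 made the matrices. The submitters' processing notes list mm10 and STAR, and filters used before deposit are not given in the sources used here. Coordinates come from RefSeq annotation of GRCm38.p6. Barcodes with at least 500 UMIs, at least 250 genes and at most 10% mitochondrial UMIs were kept, and the membership rule was applied to raw counts.

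Counts were summed over the members of each library and divided by their total (1450123 UMIs in running, 869875 in ground) to give CPM. Log2 ratios running over ground have exact conditional binomial 95% intervals; shares have exact Clopper-Pearson intervals, and the ratio of shares a normal approximation on the log scale. A gene counted as past 2-fold at a log2 ratio of 1 or more in size among genes with at least 50 UMIs. Computations used scanpy 1.11.5 with its Scrublet, pandas 2.3.3, scipy 1.17.1, numpy 2.4.6 and Python 3.11.15; they were tested on simulated counts. For shares of cells with a UMI, cells were also thinned to 2000 UMIs.

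Genes were named by rule. These were the label markers, up to 4 genes per list with the most UMIs and up to 4 with the largest ratios, and, of genes with 100 UMIs or more and at most 20% of these in 1 cell, the 12 with the highest and the 12 with the lowest ratio. The 12 highest and 8 lowest ratios over Ccl5-low T cells and the subset genes were added. Mitochondrial, ribosomal, haemoglobin, antigen receptor and unnamed genes were left out of rankings. Genes of the coreceptor and Klrb1c splits, some list genes (among them Isg15, Bst2, Pdcd1, Lag3 and Irf7) and the genes set beside NK cells were chosen after their values were seen. The members and the 23 lists were chosen with earlier results of these data known. Some items are not reported here. The alternatives changed the rule, depth, doublets, other cell types, cell weights, scaling, count minimum and subset. Others were added after seeing the data, namely requiring a T cell receptor UMI and leaving out members over 15000 UMIs.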

Additional observations from a re-analysis of the deposited data

Results flagged for a closer look

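Among 270 genes of the lists and rankings with enough UMIs in both kinds of T cell, 19 had ratios of running over ground with opposite signs in the members and in the Ccl5-low T cells, each at least 0.5 in size on the log2 scale with a counting interval that excluded 0. There is 1 library per group, and the difference was not tested. The count was not made over all measured genes, so no share of all genes stands beside it. In T cell genes, Cd8b1 was 0.93 in members and -0.71 in Ccl5-low T cells, and the Ly49 receptor gene Klra1 was 0.53 in members and -2.13 in Ccl5-low T cells. The orphan receptor gene Nr4a1 was 1.0 in members, with 40 UMIs in running, 26 of them in 1 cell, and 12 UMIs in ground, 8 of them in 1 cell, and -1.32 in Ccl5-low T cells. The other 16 were lower in running members and higher in running Ccl5-low T cells. Members stood at -1.57 for Lyz2, -1.70 for Slpi, -1.59 for Ifitm2, -1.52 for Alox5ap and -1.20 for Lgals3. They stood at -0.98 for Ccl6, -1.10 for Creg1, -1.02 for Gsr, -0.53 for Fcer1g and -0.59 for Lamp1. The AP-1 genes Fos and Jun stood at -0.81 and -0.66, the integrin gene Itga1 at -0.87, Zeb2 at -0.84, and the glycolysis genes Pgam1 and Pkm at -0.60 and -0.57. Without members over 15000 UMIs, members stood at 0.25 for Lyz2, 0.05 for Gsr and -0.15 for Lgals3. They then stood at -0.74 for Slpi, -0.70 for Ifitm2, -0.52 for Alox5ap, -0.58 for Creg1, -0.41 for Ccl6, -0.82 for Zeb2 and -0.98 for Itga1. In Ccl5-low T cells Lyz2 held 858 UMIs in running and 84 in ground, and 8 running and 2 ground cells had over 15000 UMIs. The part of these cells in the ratios of Ccl5-low T cells was not tested.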

How the results depend on the processing

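No paired analysis was possible because each group has 1 library, and no replicate could be left out. The ratio of the members' shares ran from 1.46 to 1.57 under the 9 alternatives tried for it, with every interval above 1. Counts past 2-fold depended on the settings. Over all members 55 genes were higher and 69 lower of 5393 measured. Thinning each barcode before the rule left 16 higher and 11 lower of 1709 measured. Leaving out members with UMIs of other cell types left 20 and 22 of 2194. A minimum of 20 UMIs gave 190 and 259 of 8109, and a minimum of 200 gave 7 and 9 of 1569. Genes lower numbered 35 of 5077 without members over 15000 UMIs and 33 of 5028 with each gene's largest cell left out. Of 23 lists, 7 had a median of 0.3 or more in size; this was 4 without members carrying UMIs of other cell types, 13 in CD8-type members and 13 in members without Klrb1c and Ncr1. The CD8-type share was 30.5% in running and 38.7% in ground with thinning before the rule, 32.9% in running and 33.6% in ground with members thinned, and 40.4% in running and 53.2% in ground without members carrying UMIs of other cell types. The Klrb1c share was 26.7% in running and 21.0% in ground with thinning before the rule, and 27.0% in running and 23.1% in ground with members thinned. Of 967 single-gene values under alternatives, 27 had the opposite sign, in 11 genes; 10 of these values were in 6 genes past 2-fold over all members. Gsr was 1.03 with thinning, 0.57 without members carrying other cell types' UMIs and 0.052 without members over 15000 UMIs. Without members carrying other cell types' UMIs, Bst2 was -0.077, Slpi 0.55, Lyz2 0.15, Lgals3 0.45 and Ube2c -0.93. Without members over 15000 UMIs, Lyz2 was 0.25 and Ube2c -0.18. Of the other 5 genes, Ccl6 was 1.39 without members carrying other cell types' UMIs, Gzma was 0.45 in CD8-type members and 0.38 in members without Klrb1c and Ncr1, and Xcl1, Il2rb and Nkg7 had ratios near 0 over all members and reached -0.33, 0.15 and -0.0098. The cause was not tested, except that raising the minimum leaves fewer genes and that thinning and leaving out members remove UMIs. Depth limits single genes with few UMIs, whose intervals span more than 2-fold, and shares of cells with a UMI of a low gene.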
